A study of Mus musculus with 24 samples.

Results

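The urea cycle and the pathways of amino acid breakdown were followed in mouse liver by ribosome profiling, which sequences the stretches of messenger RNA that ribosomes shield from nuclease digestion. The members were 48 genes chosen by symbol from textbook pathways, out of 22429 genes in the count table, and all 48 were among the 12211 genes with enough footprints to be tested. They comprised 8 genes of the urea cycle, 6 of glutamate metabolism and transamination, 4 of tyrosine, 5 of tryptophan, 4 of histidine, 1 of lysine, 5 of serine and glycine, 8 of sulfur amino acid, 3 of proline and ornithine and 3 of branched-chain amino acid breakdown, and Etnppl, which cleaves phosphoethanolamine. The 24 livers came from male F1 hybrids of C57BL6J and FVBN and formed 6 groups of 4. Wild types (Ercc1 +/+) were fed ad libitum to 16 or 104 weeks, or were restricted by 30% and taken at 16 weeks. Progeroid mutants (Ercc1 d/-), which carry a truncated and a null allele of the DNA repair gene Ercc1 in every cell, were fed ad libitum to 7 or 16 weeks, or were restricted by 30% and taken at 16 weeks. Restriction began at week 7, reached 30% at week 9, and used the same synthetic pellets. Every mouse was housed alone and received no food on the day it was killed.

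The liver is the main site of amino acid breakdown. Aminotransferases move the nitrogen of amino acids onto glutamate and aspartate, and the urea cycle turns that nitrogen into urea across the mitochondrial and cytosolic compartments. The carbon skeletons then feed glucose synthesis, ketone bodies or the citric acid cycle, and many of these enzymes are induced by glucagon and glucocorticoids when food is scarce. Sulfur amino acids follow a route of their own, in which methionine supplies methyl groups and its sulfur passes to cysteine, taurine and sulfate.

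Library totals ran from 13366558 to 27084259 counted footprints, and the lowest count behind any member in any library was 70, on Sdsl. Values are given as CPM, the footprints on a gene scaled to a common effective library size, and libraries are named by group and by the number on their label. Ercc1 itself had 1.92 to 4.86 CPM in the 12 wild-type libraries and 0.0502 to 0.821 CPM in the 12 mutant libraries, with no overlap. The labels number the samples but do not call them separate animals, so the p-values measure the spread between these samples. The restricted mutant library 1 had the highest value of its group on 31 of the 48 members. The fed 16-week mutant library 1 had the lowest value of its group on 29, and the 7-week mutant library 1 had the highest on 31. Among restricted wild types, libraries 1 and 2 were the highest on 21 and 20 members, and libraries 3 and 4 the lowest on 16 and 25. The members took 5.02% and 4.4% of all footprints in libraries 1 and 2, and 2.98% and 3.31% in libraries 3 and 4. Markers that define hepatocytes were abundant throughout, with 11 listed genes summing to 122600 to 282400 CPM. Because the tissue was measured in bulk, fewer cells of a type and less RNA per cell cannot be told apart. Messenger RNA levels of the same livers were not analysed here, so a change in footprints was not divided between messenger abundance and translation.

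In restricted mutants, members of every pathway but the branched-chain one rose. A gene was called when its adjusted p was below 0.05 in edgeR's quasi-likelihood test across all tested genes. Against fed mutants of the same age, restricted mutants had 24 members higher and 2 lower, where 5.59% of all tested genes were higher and 6.04% lower. The median log2 change of the 48 members was 0.47, beside 0.0019 for all genes. Without restricted mutant library 1 the count was 15 higher and 0 lower. Oat, the only proline and ornithine member called higher, was then not called (adjusted p = 0.135).

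In wild types the counts with restriction were different, which is not in itself a test of a difference between genotypes. Restricted against fed wild types had 4 members higher and 8 lower, where 5.44% of all genes were higher and 6.71% lower, and the median log2 change was -0.11 beside 0.0182. The count of 12 was 4 without restricted wild-type library 4 and 7 without fed wild-type library 1, 3 or 4, and 3 when only the 8 compared libraries were fitted. Restricted mutants against restricted wild types had 22 members higher and 2 lower, where 9.38% of all genes were higher and 8.85% lower, with a median of 0.38 beside -0.0061.

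The direct test of the difference was the interaction, the restriction response of mutants minus that of wild types. It was above 0 for 44 of the 48 members, with a median log2 difference of 0.43 beside -0.0191 for all genes. The test called 5 members, Etnppl, Cth, Aass, Gpt2 and Arg1, all with a higher response in mutants, where 0.516% of all genes were called higher and 0.287% lower. The interaction shares libraries with the other restriction comparisons and is not separate evidence. The count of 5 became 10 without restricted wild-type library 1, and 3 without fed wild-type library 2, 3 or 4, restricted wild-type library 3 or 4, fed mutant library 1 or 3, or restricted mutant library 1 or 2.

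The comparisons without restriction were of genotype and of age. Fed mutants against fed wild types at 16 weeks had 3 members higher and 7 lower, where 5.69% of all genes were higher and 5.04% lower, and the count of 10 became 6 without fed wild-type library 4 or fed mutant library 1. Old against young fed wild types had 3 higher and 10 lower, where 4.75% were higher and 4.59% lower. Fed mutants at 16 against 7 weeks had 0 higher and 1 lower, where 0.246% were higher and 0.188% lower, and 0 without any of the 8 libraries in turn. The members called in none of the 7 comparisons were Tat, Fah, Tdo2, Amt and Prodh2.

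**Figure D1:**
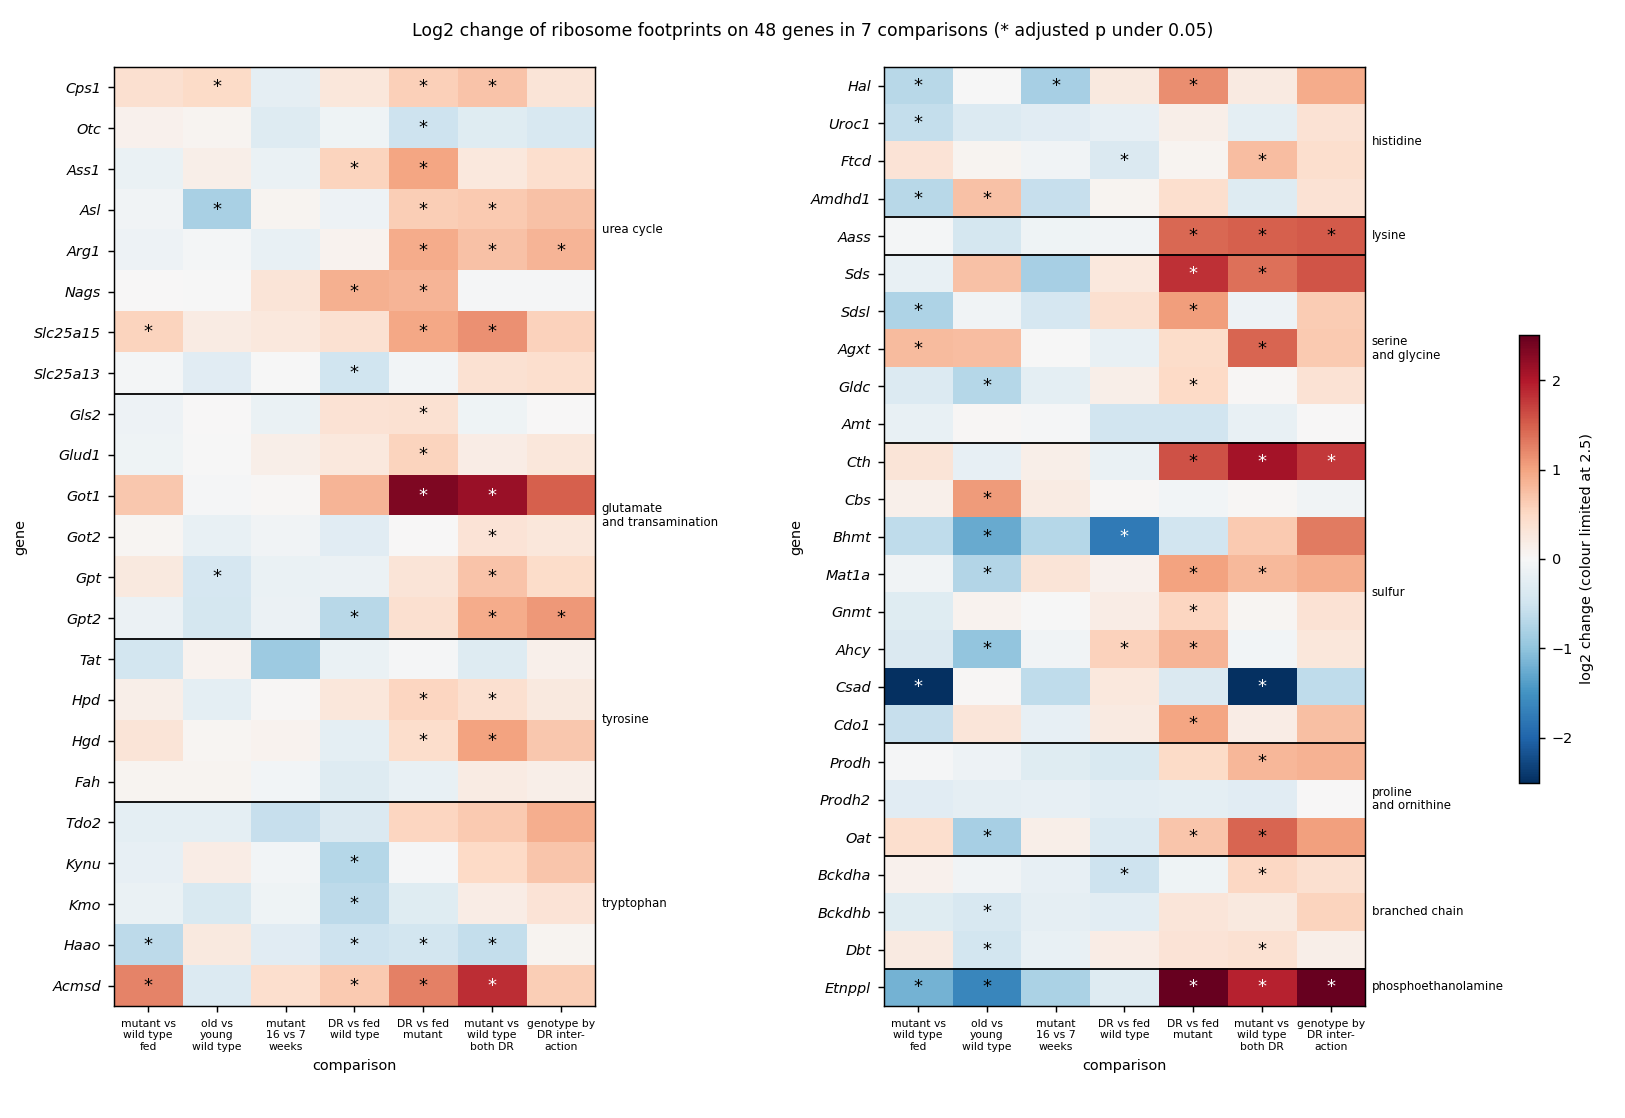
Log2 change of footprints on the 48 members (rows, grouped by pathway) in 7 comparisons (columns); red is higher, blue is lower, DR is dietary restriction, and an asterisk marks an adjusted p under 0.05. The columns of restricted against fed mutants and of restricted mutants against restricted wild types hold 24 and 22 red cells with an asterisk, against 4 in the column of restricted against fed wild types.

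In restricted mutants 6 of the 8 urea cycle members rose (Cps1, Ass1, Asl, Arg1, Nags and Slc25a15), Otc fell and Slc25a13 was not called, with a median log2 change of 0.73. The calls of Cps1, Asl and Nags were lost in 1, 3 and 5 of the 8 fits that each left out 1 library. Cps1, the mitochondrial carbamoyl-phosphate synthetase that brings ammonia into the cycle, had 6850, 7490, 7580 and 6980 CPM in fed mutants and 14600, 9790, 10300 and 9210 CPM in restricted mutants. The groups did not overlap, and library 1 of the restricted mutants stood well above the other three. The change was 1.52-fold (log2 0.60 ± 0.16 SE, n = 4 against 4, adjusted p = 0.0122), and it was no longer called without that library (log2 0.43, adjusted p = 0.0874). In fed wild types Cps1 had 4930, 5780, 4610 and 6720 CPM and in restricted wild types 7160, 8310, 5340 and 5950 CPM. These ranges overlapped, and the log2 change of 0.28 was not called. Cps1 was called higher in restricted mutants than in restricted wild types (log2 0.71). That call was lost in 0 of 8 fits without 1 library and under 1 of 5 other settings.

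Ass1, argininosuccinate synthase, and Arg1, the arginase that releases urea, showed the clearest responses among the cytosolic enzymes. Ass1 had 2240, 2860, 2220 and 2550 CPM in fed mutants and 5930, 4260, 4790 and 4630 CPM in restricted mutants, a 1.99-fold rise (log2 0.99 ± 0.14 SE, adjusted p = 3.48e-05). It rose in wild types too, from 2760, 3140, 2450 and 2670 CPM to 4930, 3900, 3290 and 4180 CPM (log2 0.56 ± 0.14 SE, adjusted p = 0.0105). Neither pair of ranges overlapped. Fitted on the 8 wild-type libraries alone, the rise in wild types was not called.

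Arg1 had 1030, 1110, 1120 and 1260 CPM in fed mutants and 2570, 2180, 1640 and 2260 CPM in restricted mutants. Every restricted mutant was above every fed mutant, by 1.91-fold on average (log2 0.93 ± 0.13 SE, adjusted p = 2.56e-05). Fed wild types had 1140, 1200, 1310 and 1260 CPM and restricted wild types 1540, 1380, 1090 and 1220 CPM, which overlap, with a log2 change of 0.09. The interaction for Arg1 was 0.84 ± 0.19 SE on the log2 scale (adjusted p = 0.0247). It was lost in 11 of the 16 fits that each left out 1 library, where the adjusted p rose to at most 0.0847, without restricted mutant library 1.

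Slc25a15, the mitochondrial ornithine carrier, was the member of the cycle with the smallest adjusted p. It had 219, 230, 195 and 229 CPM in fed wild types and 263, 332, 280 and 408 CPM in fed mutants, which was 1.47-fold higher (log2 0.56 ± 0.15 SE, adjusted p = 0.0136). Without fed mutant library 4 (adjusted p = 0.0779) or fed wild-type library 3 (adjusted p = 0.0525) that difference was not called. Restricted mutants had 685, 591, 608 and 611 CPM, above every other library of the study, and restricted wild types 310, 229, 306 and 293 CPM. Between the restricted groups the gap was 2.19-fold (log2 1.13 ± 0.15 SE, adjusted p = 6.06e-06).

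The other members of the cycle moved in different ways. Asl, argininosuccinate lyase, rose in restricted mutants (log2 0.61 ± 0.18 SE, adjusted p = 0.023), a call lost without fed mutant library 1 or 3 or restricted mutant library 1 (adjusted p up to 0.0925). Nags, which makes the activator that Cps1 needs, rose in restricted wild types (log2 0.89) and in restricted mutants (log2 0.86). The call for Nags did not hold in 4 of 8 such fits in wild types, where the highest adjusted p was 0.123, and in 5 of 8 in mutants, where it was 0.131. Otc, ornithine transcarbamylase, ran against the rest: it had 782, 703, 608 and 614 CPM in fed mutants and 418, 477, 515 and 494 CPM in restricted mutants. That fall of 1.42-fold (log2 -0.51 ± 0.15 SE, adjusted p = 0.0223) was lost in 4 of 8 fits without 1 library (adjusted p up to 0.0876). Slc25a13, which exports mitochondrial aspartate, was lower in restricted wild types (log2 -0.50, adjusted p = 0.0498), and that call was lost in 6 of 8 such fits, with an adjusted p of 0.266 without restricted wild-type library 4.

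**Figure D2:**
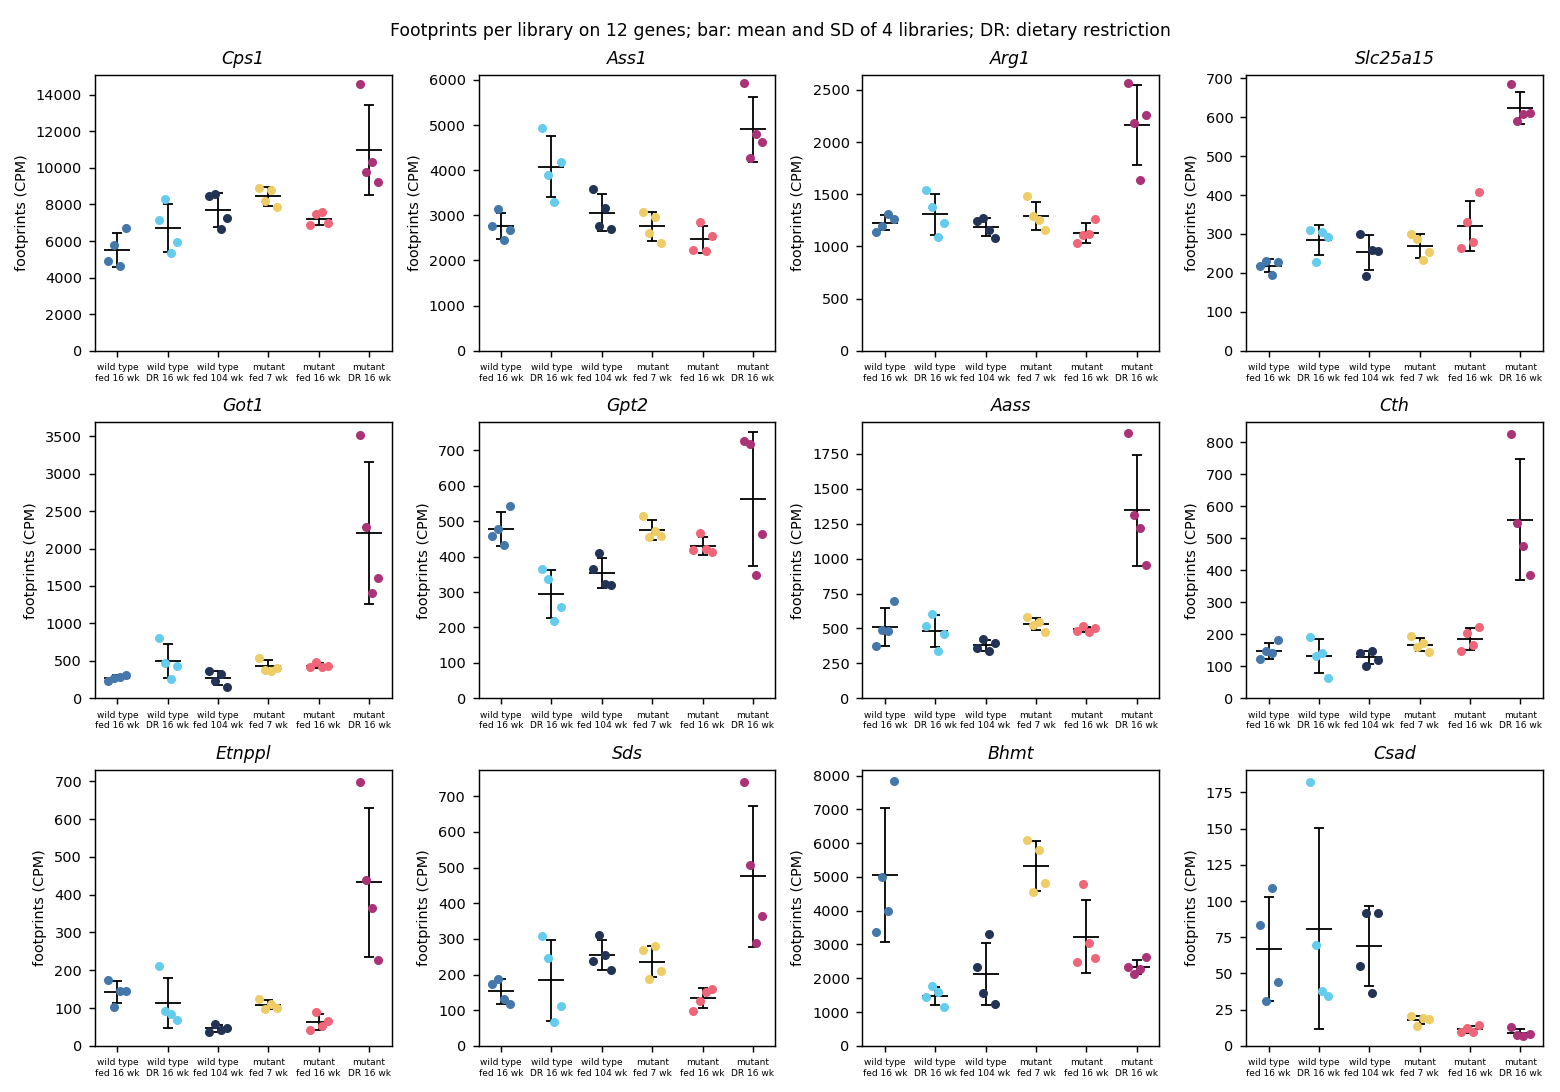
Footprint levels (CPM, linear axes from 0) in each of the 24 libraries on 12 members, by group; points are libraries and bars the mean and SD of 4, and DR is dietary restriction. For Slc25a15, Got1, Aass and Cth the 4 restricted mutants lie above all 20 other libraries, while Bhmt lies lower in restricted than in fed wild types without overlap and Csad is low in all 3 mutant groups.

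Among the enzymes of glutamate metabolism and transamination, 3 of 6 rose in restricted mutants and none fell. Got1, the cytosolic aspartate aminotransferase, changed most. It had 414, 479, 417 and 431 CPM in fed mutants and 3520, 2290, 1410 and 1610 CPM in restricted mutants, a 5.07-fold rise (log2 2.34 ± 0.31 SE, adjusted p = 2.04e-05). The lowest restricted mutant was above all 20 other libraries. In wild types Got1 had 232, 265, 286 and 315 CPM when fed and 807, 473, 264 and 427 CPM when restricted, and these ranges overlapped. The wild-type change (log2 0.84) was not called, and neither was the interaction (log2 1.50).

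Got1, Aass and Gpt2 each have 1 listed start site, and the bases before it are shown because these members rose in restricted mutants or differed in their response between genotypes. The windows run from 150 bases before the start site to the base before it, on the sense strand, as listed by RefSeq for GRCm38.p6. Capitals mark TTGCATCA, the composite element that pairs of C/EBP and ATF factors bind, and CCAAT, the box of factor NF-Y, on either strand, so that CCAAT on the other strand reads ATTGG.
Got1, chr19:43524606-43524755, minus strand: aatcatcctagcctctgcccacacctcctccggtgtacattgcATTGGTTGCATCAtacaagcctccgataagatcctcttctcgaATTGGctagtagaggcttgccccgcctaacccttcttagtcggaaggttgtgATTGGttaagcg
Aass, chr6:23132987-23133136, minus strand: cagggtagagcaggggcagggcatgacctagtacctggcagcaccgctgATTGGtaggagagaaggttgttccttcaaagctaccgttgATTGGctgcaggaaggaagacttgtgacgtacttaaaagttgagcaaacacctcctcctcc
Gpt2, chr8:85492426-85492575, plus strand: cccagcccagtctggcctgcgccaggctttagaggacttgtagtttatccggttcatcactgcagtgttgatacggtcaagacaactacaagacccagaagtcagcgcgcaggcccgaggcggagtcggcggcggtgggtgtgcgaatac
The Got1 window holds TTGCATCA 102 bases before the start, directly after an ATTGG, and the Gpt2 window holds neither motif. Etnppl, which has 2 listed start sites, is not shown, and its windows hold neither motif.

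Windows of 300 bases, from 250 before to 50 after the start, were listed for 36 of the 48 members (40 windows). TTGCATCA, searched on both strands, was found in 1 of them, that of Got1, and in 0.895% of 32851 windows of all genes. CCAAT was in 19 of 40, beside 37.4% of all windows, and TGTTCT, part of the glucocorticoid response element, in 4 of 40, beside 19.0%. TGACGTCA, the cyclic AMP response element, and TTGCGCAA, the C/EBP palindrome, were in 0 of 40, beside 1.79% and 0.183%. No motif contains another, and a match is a description of letters only.

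Gpt2, the mitochondrial alanine aminotransferase, had 459, 478, 432 and 543 CPM in fed wild types and 366, 337, 218 and 257 CPM in restricted wild types. All 4 restricted wild types were below all 4 fed ones (log2 -0.70 ± 0.18 SE, adjusted p = 0.0118), a call lost without restricted wild-type library 3 (adjusted p = 0.0506) or 4 (adjusted p = 0.062). In mutants it had 419, 468, 421 and 412 CPM when fed and 726, 719, 347 and 463 CPM when restricted. Those ranges overlapped and the change was not called. The interaction was 1.09 ± 0.26 SE (log2, adjusted p = 0.036), and it was lost in 12 of 16 fits without 1 library, with an adjusted p of at most 0.112, without restricted mutant library 1. Gpt2 was called higher in restricted mutants than in restricted wild types (log2 0.94), although those ranges overlapped. That call was lost in 0 of 8 fits without 1 library and under 0 of 5 other settings.

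The remaining members of this list also handle glutamate or glutamine. Gpt, the cytosolic alanine aminotransferase, had 324, 336, 256 and 246 CPM in restricted wild types and 457, 416, 501 and 519 CPM in restricted mutants, with no overlap (1.63-fold, log2 0.70 ± 0.13 SE, adjusted p = 0.000471). Gls2, the liver glutaminase, had 127, 174, 174 and 170 CPM in fed mutants and 219, 220, 198 and 204 CPM in restricted mutants. Its change (log2 0.38 ± 0.13 SE, adjusted p = 0.0485) was lost without any of the 8 libraries in turn, with an adjusted p of 0.173 without fed mutant library 1, which was the low one. Glud1, glutamate dehydrogenase, rose in restricted mutants (log2 0.56, adjusted p = 0.0309), a call lost in 4 of 8 such fits (adjusted p up to 0.11). Got2, the mitochondrial aspartate aminotransferase, was higher in restricted mutants than in restricted wild types (log2 0.34, adjusted p = 0.0221), lost without restricted mutant library 2 or 4 or restricted wild-type library 3 (adjusted p up to 0.0998).

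In tyrosine breakdown, 2 of 4 members, Hpd and Hgd, rose in restricted mutants, and the aminotransferase at the head of the pathway was not called. Tat, tyrosine aminotransferase, a classical target of glucocorticoids and glucagon, had 1310, 1850, 920 and 920 CPM in fed wild types and 726, 1230, 1220 and 1290 CPM in restricted wild types. In mutants it had 853, 868, 723 and 1190 CPM when fed and 1180, 1260, 555 and 557 CPM when restricted. Both pairs of ranges overlapped, and the restriction changes of -0.16 in wild types and -0.03 in mutants on the log2 scale were not called. The 7-week mutants had 2580, 1380, 1600 and 1220 CPM, and the log2 difference of -0.90 at 16 against 7 weeks was not called either.

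Hgd, homogentisate dioxygenase, had 573, 522, 518 and 329 CPM in restricted wild types and 1150, 951, 901 and 901 CPM in restricted mutants. Every restricted mutant was above every restricted wild type, by 2.01-fold (log2 1.01 ± 0.13 SE, adjusted p = 9.19e-06). Hpd, which acts just before it, had 2200, 2440, 2140 and 2390 CPM in fed mutants and 3500, 3200, 3170 and 3430 CPM in restricted mutants, also without overlap (1.45-fold, log2 0.54 ± 0.12 SE, adjusted p = 0.00438). The rise of Hgd over fed mutants was lost in 5 of 8 fits without 1 library (adjusted p up to 0.135, without restricted mutant library 1). Fah, the last enzyme of the pathway, was called in none of the comparisons.

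Of the 5 tryptophan members, Acmsd rose and Haao fell with restriction in both genotypes, Kmo and Kynu were lower in restricted wild types and Tdo2 was not called. Acmsd, which directs an intermediate away from NAD synthesis, rose with genotype and with restriction. It had 13.1, 23.1, 16.2 and 27.6 CPM in fed wild types and 35.9, 59.3, 45.2 and 46.4 CPM in fed mutants (2.35-fold, log2 1.23 ± 0.22 SE, adjusted p = 0.000386). Restricted mutants had 138, 90.6, 106 and 116 CPM, above all other libraries, and the rise over fed mutants was 2.41-fold (log2 1.27 ± 0.21 SE, adjusted p = 0.000208). The restricted wild types, with 38.9, 20.4, 36.8 and 28.7 CPM, overlapped the fed ones. Their rise (log2 0.65, adjusted p = 0.0465) was lost in 5 of 8 fits without 1 library, with an adjusted p of 0.168 without fed wild-type library 1.

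Haao, which makes the substrate that Acmsd consumes, moved the other way. It had 337, 341, 312 and 284 CPM in fed wild types, 182, 226, 205 and 195 CPM in fed mutants and 144, 120, 160 and 166 CPM in restricted mutants. Fed mutants were all below fed wild types (1.58-fold lower, log2 -0.66 ± 0.13 SE, adjusted p = 0.00132), and restricted wild types, at 202, 279, 212 and 197 CPM, were also lower (log2 -0.52 ± 0.13 SE, adjusted p = 0.00899). The fall with restriction was lost in wild types without library 4 of the restricted ones (adjusted p = 0.0595) and in mutants (log2 -0.45, adjusted p = 0.022) in 4 of 8 fits without 1 library (adjusted p up to 0.107).

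Kmo, kynurenine monooxygenase, had 264, 302, 287 and 318 CPM in fed wild types and 228, 212, 158 and 147 CPM in restricted wild types, with no overlap (1.57-fold lower, log2 -0.65 ± 0.14 SE, adjusted p = 0.00299). Kynu, kynureninase, was lower in the same comparison (log2 -0.72, adjusted p = 0.031), a call lost in 5 of 8 fits without 1 library, with an adjusted p of 0.141 without restricted wild-type library 4. In mutants neither Kmo nor Kynu was called with restriction. Tdo2, which opens the tryptophan ring, was not called in any comparison and spread widely in restricted wild types, at 2200, 2050, 706 and 824 CPM.

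Of the 4 histidine members, Hal, Uroc1 and Amdhd1 were lower in fed mutants than in fed wild types. Hal, the lyase that starts the pathway, had 198, 206, 197 and 258 CPM in fed wild types and 92.9, 146, 144 and 150 CPM in fed mutants (1.61-fold lower, log2 -0.69 ± 0.19 SE, adjusted p = 0.0162). The groups did not overlap, although each has a library set apart from its other three, and the call was lost without fed mutant library 1 (adjusted p = 0.0777) or fed wild-type library 4 (adjusted p = 0.0685). The 7-week mutants had 235, 227, 261 and 222 CPM, so the older mutants were lower (log2 -0.83 ± 0.19 SE, adjusted p = 0.0379). That was the only member called between the ages of fed mutants, and it was lost without any of the 8 libraries in turn (adjusted p up to 0.164, without fed mutant library 1). Restricted mutants had 335, 219, 371 and 270 CPM, 2.24-fold above fed mutants with no overlap (log2 1.17 ± 0.19 SE, adjusted p = 0.000106).

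Uroc1 and Amdhd1, which act after Hal, were 1.52-fold and 1.61-fold lower in fed mutants (log2 -0.60, adjusted p = 0.00254, and log2 -0.69, adjusted p = 0.00536). Neither was called with restriction. Ftcd, which passes the last carbon to folate, lay the other way between the fed groups, at 275 to 325 CPM in wild types and 337 to 422 CPM in mutants. Those ranges did not overlap, and the difference was not called (log2 0.34 ± 0.12 SE, adjusted p = 0.0584). Ftcd had 251, 262, 212 and 210 CPM in restricted wild types and 446, 324, 401 and 428 CPM in restricted mutants. These did not overlap (1.71-fold, log2 0.77 ± 0.12 SE, adjusted p = 4.99e-05). With restriction in wild types Ftcd was lower (log2 -0.37, adjusted p = 0.0383), a call lost in 5 of 8 fits without 1 library (adjusted p up to 0.19).

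Aass, the bifunctional enzyme that starts lysine breakdown, responded to restriction in mutants only as far as calls go, and the difference was itself called. It had 485, 515, 472 and 505 CPM in fed mutants and 1900, 1310, 1220 and 952 CPM in restricted mutants, a 2.72-fold rise (log2 1.44 ± 0.19 SE, adjusted p = 9.32e-06). Wild types had 373, 491, 480 and 698 CPM when fed and 520, 605, 336 and 460 CPM when restricted, which overlap. The interaction was 1.53 ± 0.27 SE (log2, adjusted p = 0.0026) and stayed called without any 1 of the 16 libraries, with an adjusted p of at most 0.0117.

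Among the serine and glycine enzymes, 3 of 5 rose in restricted mutants. Sds, serine dehydratase, which makes pyruvate for glucose synthesis, had 96.8, 127, 150 and 160 CPM in fed mutants and 741, 506, 289 and 365 CPM in restricted mutants. The groups did not overlap and the rise was 3.56-fold (log2 1.83 ± 0.36 SE, adjusted p = 0.00186). In restricted wild types it ranged from 66.4 to 308 CPM, overlapping both fed wild types and restricted mutants, and the wild-type change (log2 0.27) and the interaction (log2 1.57) were not called. Sds was called higher in restricted mutants than in restricted wild types (log2 1.37). That call was lost in 0 of 8 fits without 1 library and under 1 of 5 other settings.

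Sdsl, its closest relative, had 6.54, 9.25, 6.88 and 11.8 CPM in fed wild types, 4.44, 4.16, 5.42 and 5.89 CPM in fed mutants and 12.1, 13.1, 9.9 and 6.11 CPM in restricted mutants. Restricted mutants were above fed ones without overlap (2.07-fold, log2 1.05 ± 0.23 SE, adjusted p = 0.00277). The lower level of fed mutants than of fed wild types (log2 -0.77, adjusted p = 0.0289) was lost in 5 of 8 fits without 1 library, with an adjusted p of 0.13 without fed wild-type library 4.

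Agxt, alanine-glyoxylate aminotransferase, had 121, 121, 163 and 85.5 CPM in restricted wild types and 408, 546, 164 and 218 CPM in restricted mutants. The lowest mutant was just above the highest wild type, and the gap averaged 2.73-fold (log2 1.45 ± 0.25 SE, adjusted p = 0.00031). It was also higher in fed mutants, at 222, 248, 272 and 227 CPM, than in fed wild types, at 130, 145, 134 and 149 CPM. Although those ranges lie well apart, the call (log2 0.80 ± 0.25 SE, adjusted p = 0.042) was lost without any of the 8 libraries in turn (adjusted p up to 0.101). Gldc, the decarboxylase of the glycine cleavage system, rose in restricted mutants (log2 0.50, adjusted p = 0.0303), lost in 5 of 8 such fits (adjusted p up to 0.0971), and its partner Amt was called in no comparison.

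Of the 8 sulfur amino acid enzymes, 5 rose in restricted mutants and none fell. Cth, cystathionine gamma-lyase, which releases cysteine and makes hydrogen sulfide, had 147, 204, 166 and 222 CPM in fed mutants and 825, 548, 475 and 385 CPM in restricted mutants. All restricted mutants were above all other libraries, and the rise was 3.02-fold (log2 1.60 ± 0.25 SE, adjusted p = 0.000101). Wild types had 122, 149, 140 and 182 CPM when fed and 192, 131, 140 and 64.8 CPM when restricted, with a log2 change of -0.16 that was not called. The interaction was 1.76 ± 0.35 SE (log2, adjusted p = 0.0114) and stayed called without any 1 of the 16 libraries (adjusted p at most 0.0347).

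Cbs, which makes the substrate of Cth, did not follow it. It had 234, 275, 219 and 233 CPM in fed and 274, 275, 227 and 201 CPM in restricted wild types, and 255, 246, 236 and 311 CPM in fed and 284, 259, 220 and 237 CPM in restricted mutants. Restriction changed it by 0.02 in wild types and -0.07 in mutants on the log2 scale, neither of them called. The old wild types were the ones that stood out, at 515, 481, 577 and 450 CPM, above every other library (2.10-fold over young, log2 1.07 ± 0.13 SE, adjusted p = 3.04e-06).

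Bhmt, which remethylates homocysteine with betaine, fell with restriction in wild types, from 3360, 4990, 3980 and 7840 CPM to 1440, 1770, 1580 and 1140 CPM. The groups lay far apart and the fall was 3.40-fold (log2 -1.77 ± 0.27 SE, adjusted p = 0.000137). In mutants it had 2470, 4800, 3040 and 2610 CPM when fed and 2320, 2130, 2260 and 2620 CPM when restricted, and the log2 change of -0.47 was not called. The interaction (log2 1.30) was not called.

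Mat1a, Ahcy and Gnmt, enzymes of the methionine cycle, rose in restricted mutants. Mat1a, which makes S-adenosylmethionine, had 2690, 3020, 2540 and 3420 CPM in fed and 8040, 4670, 4900 and 5870 CPM in restricted mutants, without overlap (2.01-fold, log2 1.01 ± 0.18 SE, adjusted p = 4e-04). Ahcy, which clears S-adenosylhomocysteine, rose in both genotypes, by 1.81-fold in mutants (log2 0.86 ± 0.15 SE, adjusted p = 0.000421) and 1.48-fold in wild types (log2 0.57 ± 0.15 SE, adjusted p = 0.0152). The rise of Ahcy in wild types was lost without fed wild-type library 3 (adjusted p = 0.0593). Gnmt, the glycine methyltransferase that uses up S-adenosylmethionine, rose in restricted mutants (log2 0.54, adjusted p = 0.0267), a call lost in 5 of 8 fits without 1 library (adjusted p up to 0.0794).

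Cdo1 and Csad lie on the route from cysteine to taurine. Cdo1, cysteine dioxygenase, had 292, 373, 327 and 337 CPM in fed mutants and 890, 676, 548 and 510 CPM in restricted mutants, with no overlap (1.97-fold, log2 0.98 ± 0.20 SE, adjusted p = 0.00171). Csad, the decarboxylase that follows it, had 83.2, 31.1, 109 and 43.9 CPM in fed wild types but 9.32, 12.2, 9.57 and 14.7 CPM in fed mutants. Every mutant library was below every wild-type library of the study for Csad, and the fed groups differed 5.83-fold (log2 -2.54 ± 0.49 SE, adjusted p = 0.00208). With restriction the values were 182, 69.6, 37.8 and 34.1 CPM in wild types and 13.3, 7.47, 6.84 and 8.19 CPM in mutants, 9.05-fold apart (log2 -3.18 ± 0.51 SE, adjusted p = 0.00022). Wild types varied more than mutants among themselves.

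Oat, ornithine aminotransferase, which links ornithine to proline and glutamate, had 723, 593, 586 and 573 CPM in restricted wild types and 2220, 1390, 1330 and 1850 CPM in restricted mutants. The groups did not overlap (2.74-fold, log2 1.45 ± 0.21 SE, adjusted p = 3.13e-05). Its rise over fed mutants, which had 1060, 997, 831 and 1310 CPM, was smaller (log2 0.69, adjusted p = 0.0309) and was lost in 5 of 8 fits without 1 library, with an adjusted p of 0.135 without restricted mutant library 1. Prodh, proline dehydrogenase, had 131, 136, 93.6 and 73.6 CPM in restricted wild types and 221, 154, 175 and 221 CPM in restricted mutants (1.77-fold, log2 0.83 ± 0.18 SE, adjusted p = 0.00192). Prodh2, the hydroxyproline enzyme, was called in no comparison.

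The branched-chain members are subunits of the complex that commits these amino acids to oxidation, and none of the 3 was called with restriction in mutants. Bckdha, the E1 alpha subunit, had 259, 217, 197 and 240 CPM in fed wild types and 183, 193, 111 and 151 CPM in restricted wild types (1.43-fold lower, log2 -0.52 ± 0.15 SE, adjusted p = 0.0228), lost in 5 of 8 fits without 1 library (adjusted p up to 0.101). It was higher in restricted mutants than in restricted wild types (log2 0.51, adjusted p = 0.0173), lost without restricted mutant library 1 or restricted wild-type library 3 (adjusted p up to 0.0814). Dbt, the E2 subunit, was higher in the same comparison (log2 0.39, adjusted p = 0.0407) although the groups overlapped, a call lost in 5 of 8 fits. Bckdhb, the E1 beta subunit, ranged from 79.5 to 97.3 CPM in restricted wild types and from 90.6 to 124 CPM in restricted mutants and was not called there.

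Etnppl, which breaks phosphoethanolamine into ammonia and acetaldehyde, had the largest interaction of the 48. It had 41, 90.6, 52.3 and 65.5 CPM in fed mutants and 698, 439, 365 and 228 CPM in restricted mutants, a 6.94-fold rise (log2 2.79 ± 0.35 SE, adjusted p = 1.63e-05). Wild types had 174, 104, 144 and 145 CPM when fed and 212, 91.9, 83.2 and 67.1 CPM when restricted, overlapping through restricted library 1, with a log2 change of -0.32 that was not called. The interaction was 3.11 ± 0.48 SE (log2, adjusted p = 0.00165) and stayed called without any 1 of the 16 libraries (adjusted p at most 0.00707). Fed mutants lay below fed wild types (2.27-fold, log2 -1.18 ± 0.34 SE, adjusted p = 0.0262), a call lost in 6 of 8 fits without 1 library (adjusted p up to 0.0935).

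**Figure D3:**
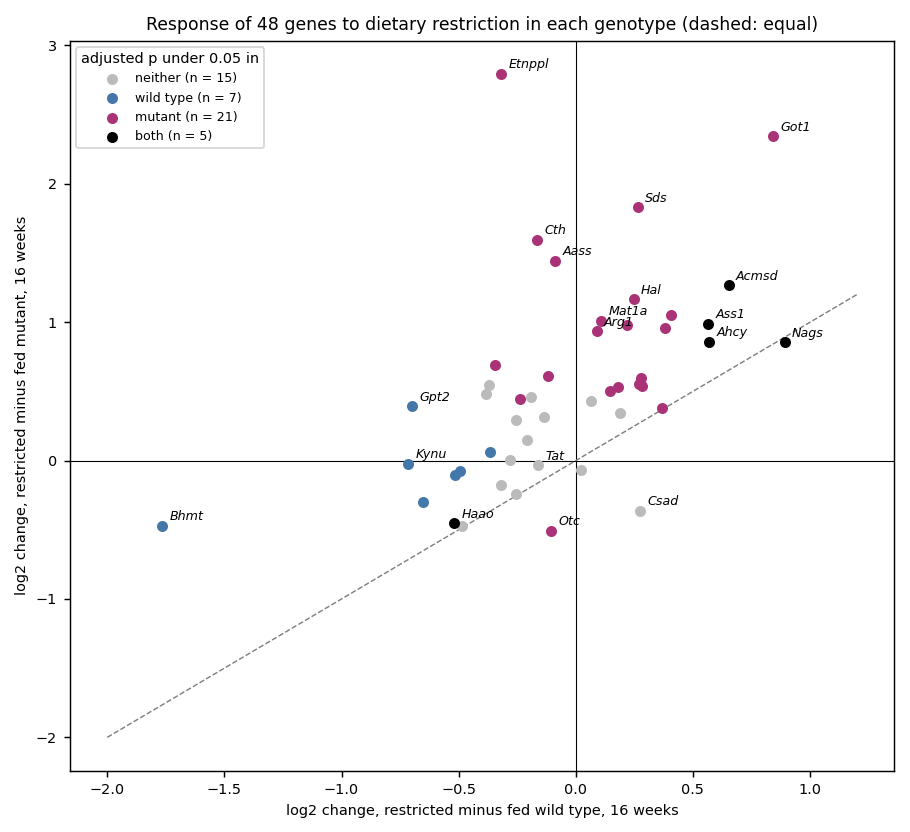
Log2 change with restriction in mutants (vertical axis) against that in wild types (horizontal axis) for each of the 48 members at 16 weeks; the 2 axes share no libraries, colours show where the adjusted p was under 0.05, and the dashed line marks equal responses. Of the 48 points, 44 lie above the dashed line, 20 members rose in mutants without being called in wild types, and 7 were lower in wild types without being called in mutants.

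The restriction comparisons of the genotypes share no libraries. Restriction raised 4 members in both (Ass1, Nags, Acmsd and Ahcy), which were 4 of the 4 raised in wild types and 4 of the 24 raised in mutants. Over all tested genes, 220 were higher in both, 33.1% of those higher in wild types and 32.3% of those higher in mutants. Restriction lowered 1 member in both (Haao), of 8 in wild types and 2 in mutants, where over all genes 314 were lower in both, 38.3% and 42.5%. Another 20 rose in mutants without a call in wild types, 7 were lower in wild types without a call in mutants, and Otc was lower in mutants alone. No member was called in opposite directions. A call in 1 genotype and not in the other is no test of a difference, and the interaction is given above where it was called.

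Other values moved with restriction beside the members. Albumin took 8.04% to 9.58% of all footprints in fed mutants and 13.6% to 17.4% in restricted mutants, and 9.18% to 10.7% in fed and 14.2% to 18.6% in restricted wild types. The 12 macrophage markers summed to 538 to 706 CPM in fed and 540 to 688 CPM in restricted mutants, with 0 of 12 called between them by edgeR (2 at an unadjusted p under 0.05) and 1 by DESeq2. In wild types they summed to 271 to 319 CPM when fed and 322 to 512 CPM when restricted. There 2 of 12 were called higher by edgeR and 5 by DESeq2. The 8 stellate cell markers summed to 222 to 322 CPM in fed and 332 to 625 CPM in restricted wild types, without overlap and with 3 called higher, and to 357 to 475 CPM in fed and 451 to 561 CPM in restricted mutants. For stellate markers DESeq2 called 3 higher and 1 lower with restriction in wild types, and 1 higher and 0 lower in mutants. The 8 endothelial markers summed to 287 to 336 CPM in fed and 309 to 501 CPM in restricted wild types, with 1 called higher, and 2 of the 3 B and plasma cell markers tested were higher there. Of 9 periportal markers 1 was higher and 2 lower in restricted mutants and 2 higher and 2 lower in restricted wild types, and of 12 pericentral markers 1 was higher and 3 lower, and 2 higher and 1 lower. Between the restricted groups the macrophage sums of mutants lay above those of wild types, and DESeq2 called 6 of 12 higher and 0 lower. There DESeq2 called 1 of 11 hepatocyte markers higher and 5 lower in mutants. Of 12 pericentral markers it called 4 higher and 1 lower. It called 2 higher and 2 lower of 9 periportal markers, and 2 higher and 0 lower of 8 stellate markers. The part of albumin and of these markers in the members' changes was not tested.

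**Figure D4:**
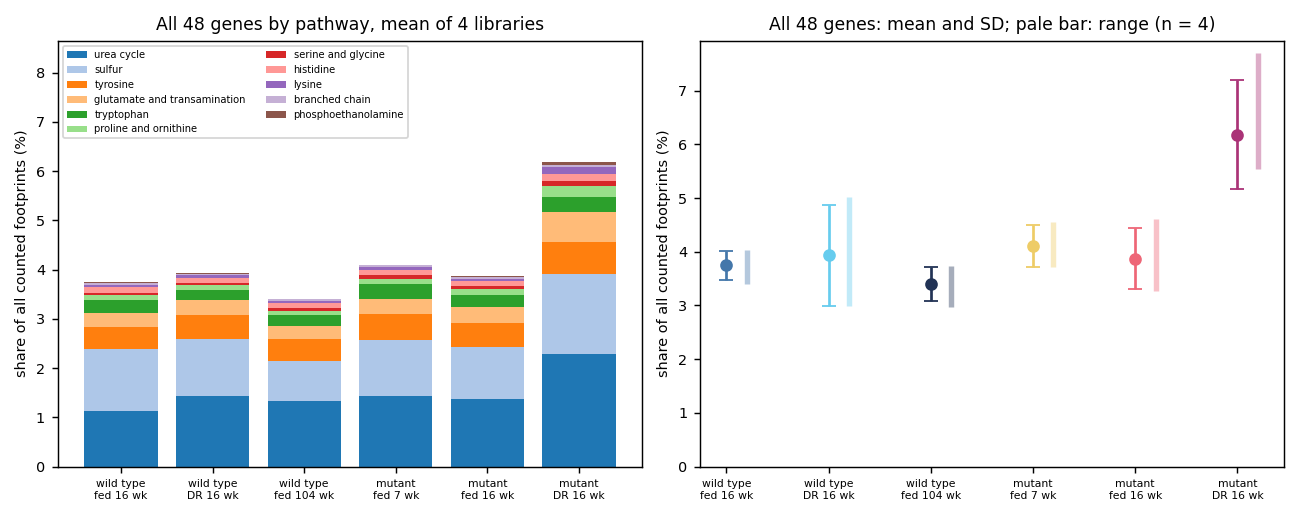
Share of all counted footprints (percent) on the 48 members in each group; the left panel stacks the mean of 4 libraries by pathway, and the right panel gives the mean and SD of the sum with the range of the 4 libraries as a pale bar. The restricted mutants, at 5.55% to 7.69%, lie above all other groups, whose highest library reaches 5.02%.

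As a share of all footprints, which grows with coding length as well as abundance, the 48 members took 3.75% ± 0.27 (SD, n = 4) in fed wild types and 3.93% ± 0.95 in restricted wild types. Fed 16-week mutants gave 3.87% ± 0.57 and restricted mutants 6.18% ± 1.01, the latter with a lowest library of 5.55%. The urea cycle alone took 1.37% ± 0.17 in fed and 2.28% ± 0.39 in restricted mutants. These shares describe the libraries and were not tested.

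Against young wild types, old ones had 13 members called. The 10 lower were Etnppl, Bhmt, Ahcy, Oat, Asl, Mat1a, Gldc, Dbt, Gpt and Bckdhb, and the 3 higher were Cbs, Amdhd1 and Cps1. The median log2 change over the 48 was -0.0626, beside 0.0149 for all genes.

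Etnppl had 36.1, 58.5, 41.8 and 47.5 CPM at 104 weeks, all below the 104 to 174 CPM at 16 weeks (3.08-fold lower, log2 -1.62 ± 0.34 SE, adjusted p = 0.00433). Bhmt, at 2330, 1570, 3310 and 1250 CPM, was 2.38-fold lower than in young livers (log2 -1.25 ± 0.27 SE, adjusted p = 0.00439). Fitted on only the 8 compared libraries, the change of Bhmt was not called (adjusted p = 0.0595). Ahcy had 1190, 1350, 1410 and 1560 CPM against 2560, 2770, 2380 and 3180 CPM in young livers (1.98-fold lower, log2 -0.98 ± 0.15 SE, adjusted p = 0.00014). None of these pairs of ranges overlapped.

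Asl, at 640, 646, 558 and 673 CPM against 978 to 1210 CPM, was the single urea cycle member lower with age (1.75-fold, log2 -0.81 ± 0.18 SE, adjusted p = 0.00449). Cps1 was higher (log2 0.49 ± 0.16 SE, adjusted p = 0.0483), but its ranges overlapped and the call was lost in 6 of 8 fits without 1 library, with an adjusted p of 0.158 without fed young library 3. Oat, Mat1a and Gldc were 1.78-fold, 1.66-fold and 1.64-fold lower, and Amdhd1 was 1.66-fold higher (log2 0.73, adjusted p = 0.00433). The calls for Gpt, Dbt and Bckdhb were lost in 6, 6 and 4 of 8 such fits (adjusted p up to 0.116, 0.104 and 0.0601).

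**Figure D5:**
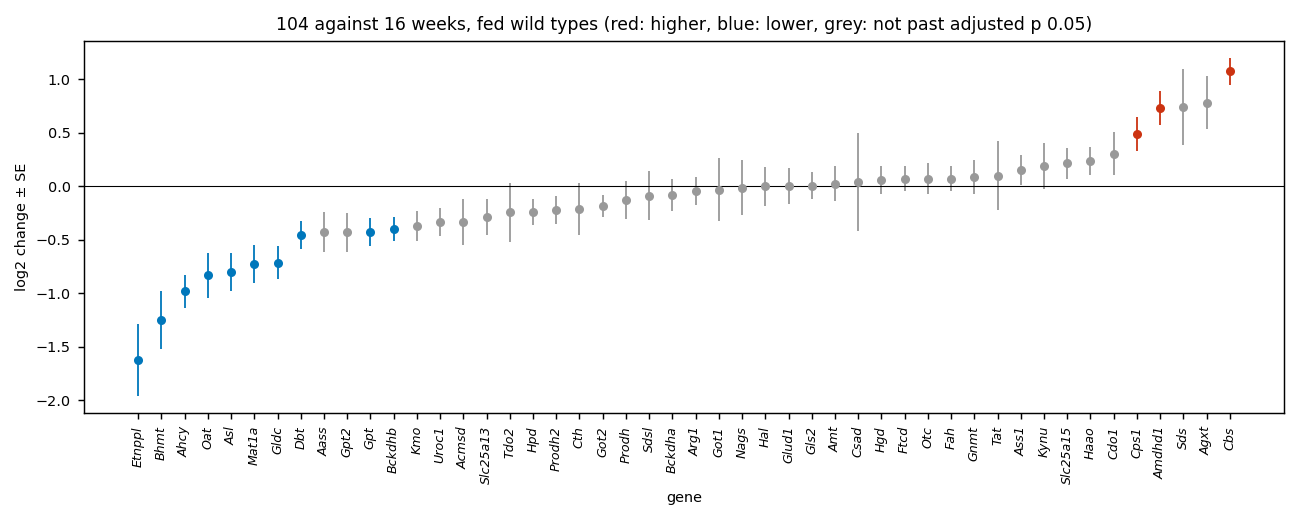
Log2 change of footprints at 104 against 16 weeks in fed wild types (vertical axis, with SE) for the 48 members in order of change; red marks members higher, blue members lower and grey those not past an adjusted p of 0.05. The lowest is Etnppl at -1.62 and the highest Cbs at 1.07, with 10 blue and 3 red points.

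Markers of several other cell types were higher with age or in fed mutants. The 12 macrophage markers summed to 271 to 319 CPM in young fed wild types, 425 to 573 CPM in old wild types and 538 to 706 CPM in fed 16-week mutants, with 9 of 12 higher with age and 12 of 12 higher in mutants. None of the 12 was at 0. The 8 B and plasma cell markers summed to 1.4 to 4.23 CPM in young and 34.9 to 83.4 CPM in old wild types, and the 3 tested (Igkc, Ighm and Jchain, 26.9-fold, 20.6-fold and 11.8-fold) were all higher. Of 3 neutrophil markers tested, S100a8 (16.8-fold) and S100a9 (14.8-fold) were higher with age. Stellate markers summed to 222 to 322 CPM in young and 341 to 394 CPM in old wild types, without overlap, with 0 of 8 called by edgeR (4 at an unadjusted p under 0.05) and 0 by DESeq2. In fed 16-week mutants they summed to 357 to 475 CPM, and 3 of 8 were higher than in fed wild types. Of the 11 hepatocyte markers tested, 2 were higher and 1 lower with age, and 1 was higher and 3 lower in mutants. The part of these markers in the lower members of old wild types and fed mutants was not tested.

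Of 111 further genes listed for these pathways, 104 were tested. With restriction in mutants 11 were higher and 10 lower, where 5.59% of all genes were higher and 6.04% lower, with a median log2 change of -0.04. With restriction in wild types 8 were higher and 24 lower, where 5.44% were higher and 6.71% lower, with a median of -0.20. Between restricted groups 27 were higher and 11 lower in mutants, where 9.38% were higher and 8.85% lower. The counts of the smaller lists that follow stand beside the same shares. Single calls of these further genes, unlike those of the members, were not checked in fits without 1 library. For the interaction 1 was called, Psat1, and 66 of 104 were above 0.

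Partners of the urea cycle included the aspartate and glutamate carriers. Slc25a12, the aspartate-glutamate carrier of other tissues, was higher in restricted mutants than in restricted wild types (log2 1.01 ± 0.14 SE), and Slc25a22, a glutamate carrier, rose in restricted mutants (log2 2.02 ± 0.29 SE). Asns, which makes asparagine from aspartate and is a target of the amino acid stress response, was higher in fed mutants (log2 3.49 ± 0.55 SE, adjusted p = 0.000107) and in old wild types (log2 3.57 ± 0.56 SE, adjusted p = 0.000138). Restriction changed Asns by 1.34 in wild types and 0.63 in mutants (log2), neither of them called. Of the 9 urea cycle partners tested, 6 were higher in restricted mutants than in restricted wild types and none lower.

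In the aromatic and lysine pathways, Pcbd1, which recycles a pterin cofactor, was lower in restricted mutants than in restricted wild types (log2 -0.72 ± 0.12 SE). Qprt, which continues tryptophan breakdown toward NAD, fell with restriction in wild types (log2 -0.90 ± 0.12 SE) and in mutants (log2 -0.40 ± 0.12 SE, adjusted p = 0.0282). Of 6 lysine partners none was called with restriction in mutants and 2 were lower with restriction in wild types. Phykpl, which breaks down phosphohydroxylysine, was higher in restricted mutants than restricted wild types (log2 0.87), Gcdh was lower in old wild types (log2 -0.55) and Aldh7a1 lower in restricted wild types (log2 -0.47).

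Of the serine, glycine, proline and histidine partners, 6 of 13 were lower in restricted wild types and none higher. Psat1, which makes serine rather than breaking it down, rose in restricted mutants (log2 1.92 ± 0.41 SE, adjusted p = 0.00257) and had the called interaction (log2 2.84 ± 0.61 SE, adjusted p = 0.0205). Hoga1 and Grhpr, which handle hydroxyproline carbon and glyoxylate, fell in restricted wild types (log2 -0.90 and -0.84). Branched-chain partners were lower for 4 of 17 in restricted wild types, among them Mccc2 (log2 -0.56). Pcca was lower in fed mutants (log2 -0.89) and Acadsb in restricted mutants (log2 -0.45).

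Of 17 sulfur and methyl partners, 3 were higher and 5 lower in restricted wild types, and 3 higher and 1 lower in restricted mutants. Bhmt2, the neighbour and relative of Bhmt, fell in restricted wild types (log2 -0.66), and Sqor, which oxidises hydrogen sulfide, was higher in restricted mutants than in restricted wild types (log2 0.67), where Pemt was lower (log2 -0.45). Among 12 amino acid transporters, 4 were higher and 1 lower in restricted wild types, and 2 higher and none lower in restricted mutants. Between the restricted groups Slc43a1 was higher in mutants (log2 1.63), and Slc6a13 (log2 -0.71) and Slc25a44 were among the 3 that were lower.

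A list of 19 regulators and hormone-responsive genes had 1 higher and 1 lower with restriction in mutants, where 5.59% of all genes were higher and 6.04% lower. In wild types 3 of the 19 were lower and none higher, where 6.71% were lower and 5.44% higher. Gcgr, the glucagon receptor, was lower with restriction in wild types (log2 -0.69 ± 0.12 SE, adjusted p = 0.000255) and in mutants (log2 -0.44 ± 0.12 SE, adjusted p = 0.0127). Ppargc1a, a coactivator of the fasting programme, rose in restricted mutants (log2 2.25 ± 0.57 SE, adjusted p = 0.0126).

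Klf15, a fasting-induced factor that drives amino acid breakdown genes, was not called with restriction (log2 -0.52 in wild types and -0.11 in mutants). The same held for Cebpb (log2 -0.54 and -0.48) and Hnf4a (log2 0.44 and 0.30). Sirt5, which removes acyl groups from mitochondrial enzymes including Cps1, was higher in restricted mutants than in restricted wild types (log2 1.16 ± 0.19 SE). Insr, the insulin receptor, was lower in fed mutants than in fed wild types (log2 -0.61 ± 0.15 SE, adjusted p = 0.00743).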

How the data were processed

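Footprints per gene were deposited as whole-number counts; Trimmomatic 0.39, cutadapt 3.4, Bowtie2 2.4.2, STAR 2.7.0f and 2.7.8a, featureCounts of Subread 1.6.4 and the build GRCm38.p6 are named in the submitters' processing notes. For the table itself, the tool, annotation release, strand setting and handling of multiply mapped reads were not given in the sources used here. The deposited counts of all 24 libraries were fitted together with edgeR 4.0.16 (R 4.3.3), using filterByExpr, TMM scaling, the robust quasi-likelihood F test, 7 contrasts and Benjamini-Hochberg adjustment over 12211 genes. The fit was tested on simulated data. CPM values are not corrected for length, so levels of different genes were not compared. Groups came from the labels. Members, gene lists and tests were chosen with earlier results of these data known. Genes named in detail were those with the smallest adjusted p in each pathway, and all called genes where a pathway had 5 or fewer calls. Cps1, Arg1, Tat and Gls2 were named whatever their values, as were Klf15, Gcgr, Cebpb and Hnf4a among the regulators. Alternatives were DESeq2 1.42.0, its size factors, no low-count filter, only the compared libraries, a replicate block and leaving out each library.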

Additional observations from a re-analysis of the deposited data

Results flagged for a closer look

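In 15 of 288 groups of 4 libraries, the value of 1 library on a member lay apart from the other three by more than Dixon's 95% critical value. Chance flags about 1 in 20 groups, so a count of this size is near what chance gives.

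Among fed 16-week mutants, library 1 was low on Gls2 (127 CPM, the others 170 to 174) and on Hal (92.9 CPM, the others 144 to 150). Library 2 was high on Gpt2 (468 CPM, the others 412 to 421), and library 3 was low on Kmo (231 CPM, the others 269 to 273). In 7-week mutants, library 1 was high on Oat (1250 CPM, the others 799 to 873) and Kynu (187 CPM, the others 166 to 169). The same library was low on Got2 (732 CPM, the others 756 to 757) and Amdhd1 (85 CPM, the others 91 to 91.7).

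In restricted wild types, library 1 was high on Oat (723 CPM, the others 573 to 593) and Etnppl (212 CPM, the others 67.1 to 91.9) and low on Tat (726 CPM, the others 1220 to 1290). Library 3 was low on Glud1 (825 CPM, the others 1450 to 1540). Fed 16-week wild-type library 4 was high on Hal (258 CPM, the others 197 to 206). In old wild types, library 3 was low on Tdo2 (1180 CPM, the others 1670 to 1750) and library 2 on Agxt (173 CPM, the others 256 to 265).

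The interaction test called a difference between the genotypes for Arg1 (log2 difference 0.84), Gpt2 (1.09), Aass (1.53), Cth (1.76) and Etnppl (3.11), each higher in mutants. The calls of Arg1 and Gpt2 were lost in 11 and 12 of the 16 fits that each left out 1 library. Those of Aass, Cth and Etnppl were lost in 0.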

How the results depend on the processing

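Counts of called members stayed within 1.5 times their value under another scaling, no low-count filter, DESeq2 and fits of only the compared libraries, apart from these. With only the compared libraries the count became 5 from 1 for mutants at 16 against 7 weeks, 3 from 12 for restriction in wild types and 3 from 5 for the interaction. DESeq2 gave 13 for the interaction. Leaving out each library gave 6 to 9 for fed mutants against fed wild types, 9 to 11 for age, 0 to 0 for mutants at 16 against 7 weeks, 4 to 15 for restriction in wild types, 15 to 27 for restriction in mutants, 21 to 28 between restricted groups and 3 to 10 for the interaction.

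Same-numbered libraries correlated between -0.186 and 0.25, and in no comparison did every pair pass 0.1. Between old and young wild types 3 pairs passed it, where differently numbered libraries had a mean of -0.025. Between fed mutants and fed wild types 0 pairs did. Whether the numbers pair the samples cannot be told from these values, and the main fit used no pairing. With the replicate block the counts, in the same order, were 10, 11, 1, 10, 25, 25 and 6.

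Some values near 0 that were not called changed sign. For Gls2 with age (log2 0.0033) the value was -0.0159 with no filter and -0.0013 with the replicate block, and -0.0956 to 0.0889 without 1 library. For the interaction of Tat (0.13) it was -0.0499 with the replicate block and -0.1514 to 0.2908 without 1 library. Without 1 library the interaction of Gls2 ranged from -0.0906 to 0.0687, and Tat from -0.2832 to 0.1245 with restriction in wild types, -0.1508 to 0.3595 with age and -0.245 to 0.1391 with restriction in mutants. The cause was not tested.

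Depth limits Sdsl most, with 70 footprints in its lowest library.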
